A study of Drosophila melanogaster with 4 samples.

Results

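The vacuolar proton ATPase (V-ATPase) genes of Drosophila melanogaster were examined in RNA sequencing libraries of whole adult females aged 1 to 3 days. Members were all gene IDs whose current FlyBase symbol starts with Vha followed by a digit or a capital letter, which gave 33 genes of the reference symbol table. Of these, 24 had a row in at least 1 of the 4 libraries, out of 12073 gene IDs listed in any library. The 4 groups were kdm5 mutants with paraquat, kdm5 mutants without it, w1118 flies (wild type) with paraquat and w1118 flies without it. Mutants carried the allele pair kdm5K6801/10424 on the w1118 background that the wild type flies also have, and the Kdm5 protein removes methyl groups from histones. Paraquat flies took 20 mM of this superoxide-generating herbicide in 5% sucrose for 6 hours, and control flies took 5% sucrose for the same 6 hours. Each group had 1 library from RNA of flies extracted in groups of 5, so differences between groups rest on single libraries, without a check by replicates or a p-value.

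The V-ATPase is a rotary pump that uses ATP to move protons across membranes. Its V1 sector, in the cytosol, splits ATP at the A and B subunits, and a central shaft that includes the D and F subunits turns the c-subunit ring of the membrane V0 sector, next to the a subunit that forms the proton path. The pump acidifies lysosomes, endosomes and synaptic vesicles, and in insect epithelia such as the Malpighian tubule it also sits at the apical plasma membrane and drives ion and fluid transport. Flies encode several subunits by more than 1 gene, and the paralogs differ in the tissues that use them.

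Not every member could be measured. Vha44, Vha26, Vha13 and VhaAC39-1 (subunits C, E, G and d) have current IDs newer than any ID in the tables, and Vha100-3, Vha16-2, Vha16-3, VhaM9.7-c and VhaM9.7-d have no row. These 9 genes were not analysed here, and none of them was taken as 0. Of the 24 listed members, 17 reached 1 RPKM (reads per kb per M reads) in all 4 libraries and are the ones described below. The other 7 stayed under 1 RPKM in all 4. VhaAC39-2, a d subunit gene, held the most reads of these: 15 in mutant paraquat, 10 in mutant control, 11 in wild type paraquat and 5 in wild type control flies. Vha68-3 had 6 reads in mutant paraquat flies, 1 in wild type paraquat flies and 0 in either control library. Vha36-2, Vha14-2, Vha16-4, Vha16-5 and VhaPPA1-2 had 0 to 3 reads in every library, at or under the floor of 3 reads used for absence. Testis markers were near absent too: of 8 with a row, all but twe (13.7 to 42.2 RPKM), a germline phosphatase that the ovary also uses, were under 1 RPKM in every library.

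Libraries held 27.9 to 29.1 M uniquely mapped reads. Kdm5 was at 2.03 RPKM in mutant paraquat and 2.06 in mutant control flies, against 22.5 in wild type paraquat and 43.4 in wild type control flies. Over all genes the wild type control stood apart: its differences from the other libraries had an SD across genes of 0.72 to 0.75 on the log2 scale, against 0.28 to 0.59 among the other 3. Over the V-ATPase members wild type paraquat stood apart instead, with an SD of 0.30 to 0.32 against the other libraries. The wild type control had 0.19 against each mutant library, and the mutant libraries had 0.10 between them. For the comparisons that use the wild type control, the members' median and signs are also given below with another baseline. Values of single genes and of other gene lists are not. Differences are of log2(RPKM + 1) and folds are RPKM ratios. Parentheses give exact 95% Clopper-Pearson intervals, which cover counting error only. A gene was called at a difference of at least 1 (the 2-fold rule) or of at least 0.58 (the 1.5-fold rule); the added 1 understates differences of low genes, so a gene past 1.5-fold in RPKM need not be called. In whole flies, fewer cells of a type and less RNA per cell cannot be told apart.

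The 24 listed members together held 0.595% of reads in mutant paraquat, 0.665% in mutant control, 0.748% in wild type paraquat and 0.571% in wild type control flies. These shares leave out the genes not analysed here, among them the 4 for subunits C, E, G and d named above, and so understate the whole pump. Wild type flies on paraquat gave the listed members the largest share of the 4 libraries and wild type controls the smallest. Levels differed far more between subunits than between libraries. Because the deposited length spans introns for most genes, subunits were compared on reads per kb of summed exons per M reads (exon RPKM).

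The c subunit gene Vha16-1 (FBgn0262736; chromosome 2R, 6625242 to 6633090 in the BDGP6 annotation, minus strand) was the most abundant member. Its exon RPKM was 844 in mutant paraquat, 946 in mutant control, 1164 in wild type paraquat and 790.0 in wild type control flies, above at least 99.2% of expressed genes in each library. The c subunit is the one present in many copies in each pump. In the V1 sector the B subunit gene Vha55 (FBgn0005671; 3R, 12623762 to 12627829, minus strand) followed, at 339, 371, 403 and 337 exon RPKM in the same order of libraries. Vha68-2 (FBgn0263598; 2L, 12974322 to 12978607, plus strand), the main gene for the catalytic A subunit, came next at 253, 295, 297 and 266. VhaAC45, which encodes the accessory subunit Ac45, followed at 204, 228, 243 and 178.

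Below these came single genes for the other parts of the pump. The shaft genes Vha36-1 (D) and Vha14-1 (F) had 149 to 175 and 125 to 156 exon RPKM over the 4 libraries. VhaPPA1-1, for the c″ subunit of the ring, had 132 to 164, and VhaSFD, for the regulatory H subunit, 73.4 to 96.6. The e subunit gene VhaM9.7-b had 78.7 to 99.3 and Vha100-2, the most abundant a subunit gene, 82.7 to 96.3. The first 5 places in the order of levels, Vha16-1, Vha55, Vha68-2, VhaAC45 and Vha36-1, were the same in all 4 libraries. The last of these was not resolved in wild type paraquat flies, where Vha36-1 had 164.3 and VhaPPA1-1 164.2 exon RPKM. Further down, neighbours such as Vha14-1 and VhaPPA1-1 (134 and 135 exon RPKM in wild type controls) lay within counting error of each other. The lowest places were held by minor paralogs: Vha36-3, VhaAC45RP, Vha100-4 and VhaM9.7-a lay between 3.91 and 11.01 exon RPKM.

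**Figure D1:**
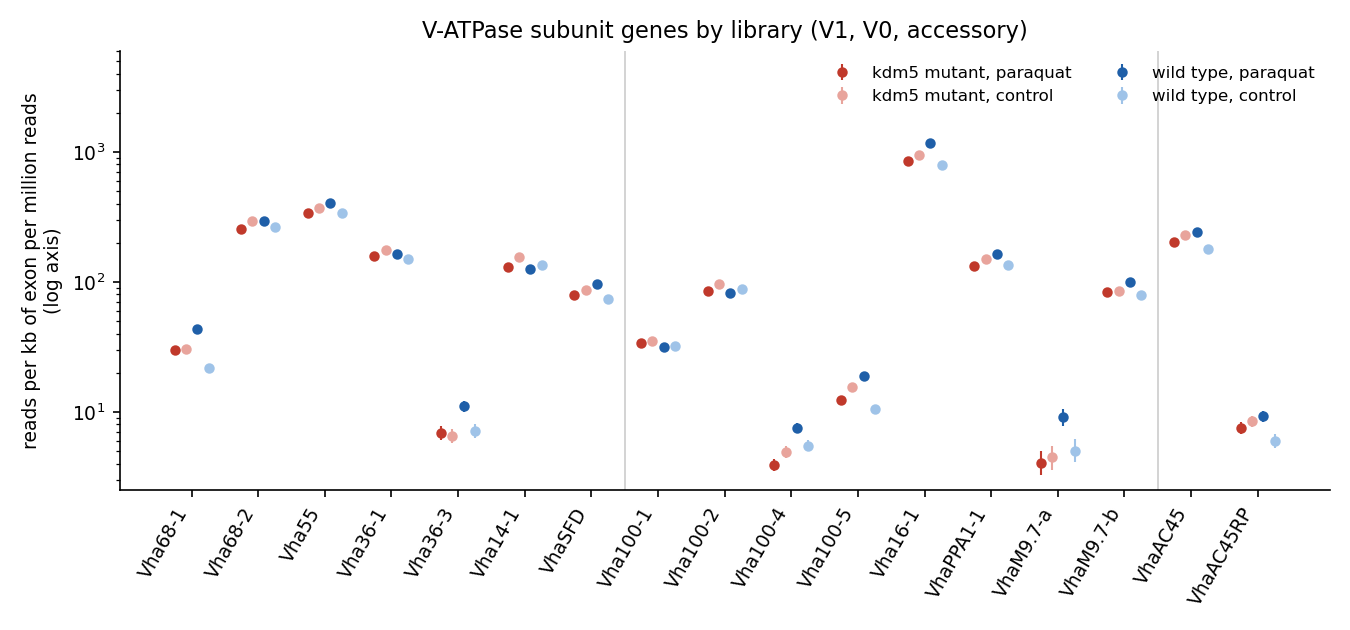
Level of each of the 17 measured V-ATPase genes in the 4 libraries (reads per kb of exon per M reads, log axis; points are single libraries and bars are 95% Poisson counting intervals). Genes are ordered by sector with grey lines between V1, V0 and accessory genes. Vha16-1 is highest in every library. Wild type paraquat is the top point for 13 of the 17 genes, and 21.2% of 8611 genes had their highest RPKM there.

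Paraquat was first compared with control feeding within the mutant, to ask what oxidative stress does where Kdm5 is low. V-ATPase genes were slightly lower with paraquat. Of 17 members 16 had a negative difference (13 under median-ratio or upper-quartile scaling or with totals that leave out mt:lrRNA, a mitochondrial ribosomal RNA), with a median of −0.14, quartiles of −0.18 and −0.11 and a range of −0.30 to 0.08, beside a median of −0.05 over 8288 genes. A positive difference was seen in 37.4% of the 8288 genes. For 11 members the counting interval lay below 1-fold, for 0 above it and for 6 it included 1. Intervals were not computed over all genes in any comparison, and for genes with many reads they leave out 1 at small differences. No member was called by either rule. Over all genes 2.32% were called lower and 2.11% higher by the 1.5-fold rule, and 0.603% and 0.712% by the 2-fold rule.

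Vha16-1 was at 331 RPKM in mutant paraquat and 371 in mutant control flies, 1.12-fold lower (1.11 to 1.13). Vha68-2 was at 163 and 189.6 RPKM, 1.16-fold lower (1.14 to 1.19), and Vha55 at 232 and 254, 1.10-fold lower (1.08 to 1.11). These 3 genes are the abundant core of the ring and of the ATP-splitting head, and each interval lay below 1-fold. Vha14-1, the F subunit gene, had 130.1 and 156 RPKM, 1.20-fold lower (1.14 to 1.26). The furthest lower were the minor a subunit genes Vha100-5, with 6.41 and 8.12 RPKM (1.27-fold lower, 1.17 to 1.38), and Vha100-4, with 3.59 and 4.53 RPKM (1.26-fold lower, 1.08 to 1.47). Vha68-1, Vha100-1 and VhaM9.7-b differed by −0.03 to −0.02, their intervals included 1, and all 3 were just above 0 under the scalings named above. Vha36-3 was the one member with a positive difference, at 6.83 and 6.43 RPKM (1.06-fold, 0.888 to 1.27).

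The same comparison in wild type flies asked how the intact fly responds. Here V-ATPase genes were higher with paraquat in 14 of 17 cases, and counting intervals lay above 1-fold for these 14, below it for 2 and across it for 1. The median difference was 0.39, with quartiles of 0.16 and 0.56, beside a median of −0.29 over 8429 genes. Of those genes 36.8% were positive, and 17 of 17 members lay above their median. Another scaling moves all genes together here: the median over all genes was −0.13 with median-ratio and −0.03 with upper-quartile scaling, and all 17 members were then positive and above it. Vha68-1, Vha100-5 and VhaM9.7-a were called higher by the 1.5-fold rule, 0 members lower, and 0 were called by the 2-fold rule. Over all genes, 15.4% were called higher and 32.4% lower by the 1.5-fold rule, and 5.21% and 10.4% by the 2-fold rule. Higher genes were 33.3% of the 2-fold calls, against 58.5% with median-ratio and 72.1% with upper-quartile scaling. The count of 3 depended on the setting: it was 7 with median-ratio scaling, 10 with upper-quartile scaling, 5 with totals without mt:lrRNA or a pseudocount of 0.1, and 1 with a pseudocount of 5, and Vha68-1 passed the 2-fold rule under the 3 scalings.

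Vha68-1 (FBgn0265262; 2L, 13000770 to 13004107, minus strand), the minor gene for the catalytic A subunit, was at 35.1 RPKM in wild type paraquat and 17.5 in wild type control flies. That is 1.999-fold higher (1.88 to 2.12), with a difference of 0.96. Its paralog Vha68-2, on the same arm, was at 190.9 and 171 RPKM, 1.11-fold higher (1.09 to 1.14). Vha55 had 276 and 231 RPKM (1.20-fold, 1.18 to 1.22) and VhaSFD 55.3 and 42.0 RPKM (1.32-fold, 1.27 to 1.36). The shaft genes went separate ways: Vha36-1 had 164 and 149 RPKM (1.10-fold, 1.06 to 1.15), while Vha14-1 had 125 and 134 RPKM (1.08-fold lower, 1.02 to 1.14). Under median-ratio and upper-quartile scaling Vha14-1 was positive.

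In the membrane sector Vha16-1 had 456 RPKM in wild type paraquat and 309.7 in wild type control flies, 1.47-fold higher (1.46 to 1.49). It alone added more reads than the other members together: summed V-ATPase reads were 30.98% higher with paraquat, and 18.9% higher without Vha16-1. VhaPPA1-1 had 127 and 104 RPKM (1.22-fold, 1.17 to 1.26) and VhaM9.7-b 89.2 and 70.6 RPKM (1.26-fold, 1.20 to 1.33). Among the a subunit genes, Vha100-5 (2L, 11738948 to 11744524, plus strand) had 9.85 and 5.52 RPKM (1.78-fold, 1.64 to 1.94). An antisense gene shares 527 bp of its 2918 bp of exons, so part of these reads may belong to that neighbour. Vha100-4, which in the fly midgut serves acid secretion by copper cells, had 6.94 and 5.05 RPKM (1.37-fold, 1.21 to 1.56). Vha100-2 had 30.1 and 32.04 RPKM (1.06-fold lower, 1.03 to 1.10), and it too was positive under median-ratio and upper-quartile scaling. Vha100-1, the a subunit gene known for its role at synapses, had 15.2 and 15.6 RPKM, and its interval included 1 (0.971-fold, 0.923 to 1.02). The accessory genes VhaAC45 (221 and 162 RPKM, 1.36-fold, 1.33 to 1.40) and VhaAC45RP (8.91 and 5.80 RPKM, 1.54-fold, 1.32 to 1.79) were both higher. So were the rare paralogs VhaM9.7-a (8.46 and 4.71 RPKM, 1.80-fold, 1.40 to 2.32) and Vha36-3 (10.8 and 6.97 RPKM, 1.56-fold, 1.33 to 1.83).

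**Figure D2:**
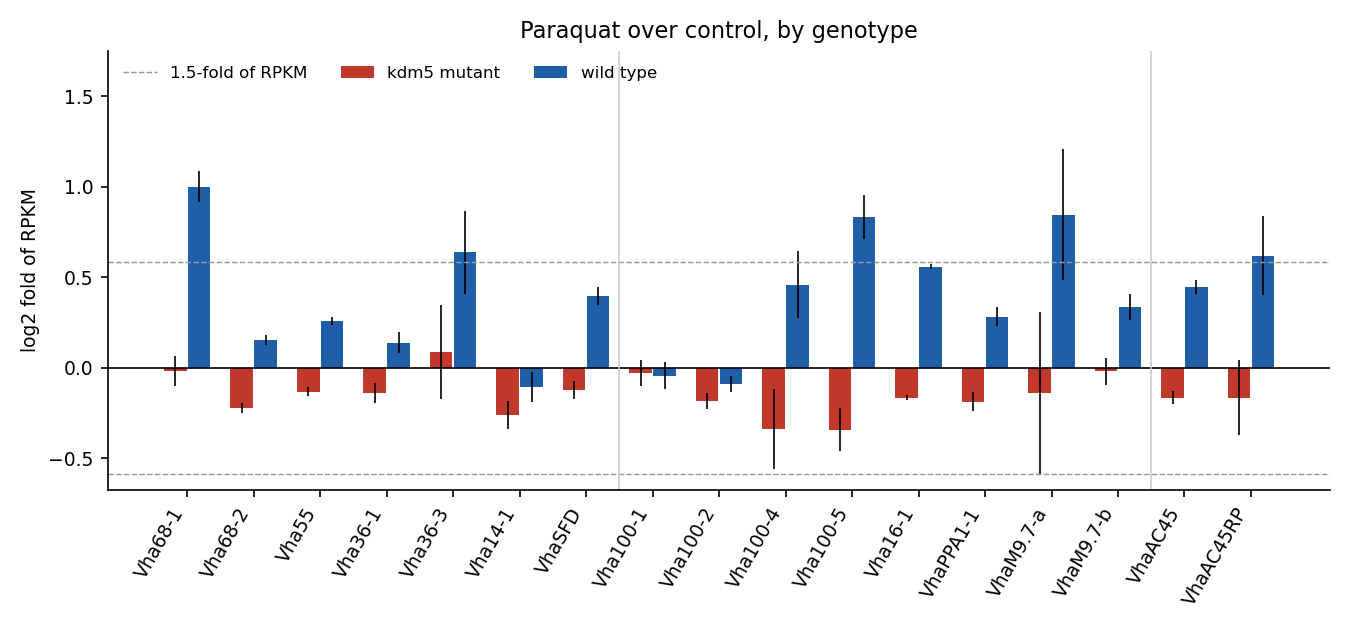
Log2 fold of RPKM, paraquat over control, for each of the 17 measured V-ATPase genes in kdm5 mutant and wild type flies (bars, 1 library pair each; error bars are 95% counting intervals; dashed lines mark 1.5-fold of RPKM, not the call on log2(RPKM + 1)). In the mutant 16 of 17 bars lie below 0, and in wild type 14 of 17 lie above it, Vha68-1 furthest; under median-ratio or upper-quartile scaling these counts are 13 and 17.

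These responses share no library, so they can be set side by side. Of 17 members 13 had a negative difference in the mutant and a positive one in wild type, a pattern seen in 21.6% of 8611 genes. For 9 of these 13 both counting intervals left out 1: Vha68-2, Vha55, Vha36-1, VhaSFD, Vha100-4, Vha100-5, Vha16-1, VhaPPA1-1 and VhaAC45. Vha14-1, Vha100-1 and Vha100-2 were negative in both genotypes (under median-ratio and upper-quartile scaling they were positive in wild type), and Vha36-3 positive in both. The difference of the responses, mutant minus wild type, had a median of −0.49 over the members and of 0.25 over all genes. By the 2-fold rule 1 member, Vha100-5 (−1.03), was called lower, against 6.18% of all genes, and by the 1.5-fold rule 7 members were, against 17.6%. Higher calls numbered 0 by both rules, against 8.36% and 30.1%. The other 6 were Vha68-1 (−0.98), VhaM9.7-a (−0.84), Vha16-1 (−0.72), VhaAC45RP (−0.69), Vha100-4 (−0.66) and VhaAC45 (−0.61). Each of these differences contains the wild type control library. Wild type paraquat flies were also set against the mutant control as baseline, a comparison that crosses genotypes. The members' median was then 0.13 in place of 0.39, beside −0.12 over all genes. Of 17 members 13 were positive and 14 lay above the median of all genes.

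Mutant and wild type controls were compared to describe how unstressed flies with low Kdm5 differed from wild type. V-ATPase genes were modestly higher in the mutant, with a positive difference in 14 of 17 cases, against 37.7% of 8364 genes. The median was 0.15, beside −0.19 over 8364 genes, and the range was −0.14 to 0.48; with median-ratio and upper-quartile scaling the members' median was 0.26 and 0.29. All 14 of these intervals lay above 1-fold, and the other 3 included 1. No member was called by either rule, but 2 were higher by the 1.5-fold rule with upper-quartile scaling. Over all genes 14.7% were called higher and 21.1% lower by the 1.5-fold rule, and 6.55% and 5.75% by the 2-fold rule. Higher genes were 53.3% of the 2-fold calls, against 64.9% with median-ratio and 68.4% with upper-quartile scaling.

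Vha100-5 was furthest higher, at 8.12 RPKM in mutant and 5.52 in wild type controls (1.47-fold, 1.35 to 1.60). Vha68-1 had 24.4 and 17.5 RPKM (1.39-fold, 1.30 to 1.48), and VhaAC45RP 8.16 and 5.80 RPKM (1.41-fold, 1.20 to 1.64). These are paralogs expressed below the main gene of their subunit. Among the abundant genes, VhaAC45 had 208 and 162 RPKM (1.28-fold, 1.25 to 1.32), Vha16-1 371 and 309.7 RPKM (1.20-fold, 1.19 to 1.21) and Vha55 254 and 231 RPKM (1.10-fold, 1.08 to 1.12). VhaM9.7-a, Vha100-4 and Vha36-3 were on the other side, by −0.14 to −0.10, except that Vha36-3 was at 0.02 with upper-quartile scaling. Mutant controls were also set against wild type paraquat flies, a comparison that changes treatment together with genotype. The members' median was then −0.13, beside 0.12 over all genes, and 13 of 17 were negative. This comparison uses the library pair used above with the mutant control as baseline, with the sign turned. It is therefore not a separate check and cannot test the comparison of controls.

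The genotypes under paraquat were compared without the wild type control library, and here V-ATPase genes were lower in the mutant in 14 of 17 cases (16 with upper-quartile scaling). The median was −0.26, beside 0.08 over 8487 genes, and 16 of 17 members lay below that median. Differences were positive for 3 of 17 members and for 59.5% of the 8487 genes. Intervals lay below 1-fold for 13 members and above it for 1. VhaM9.7-a, Vha100-4 and Vha36-3 were called lower by the 1.5-fold rule and 0 higher, beside 7.26% and 7.2% of all genes. By the 2-fold rule 0 members were called, beside 2.7% lower and 2.3% higher over all genes.

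VhaM9.7-a, a rare gene for the e subunit, was at 3.80 RPKM in mutant and 8.46 in wild type paraquat flies, from 84 and 186 reads (2.23-fold lower, 1.71 to 2.92). Vha100-4 (3R, 18386841 to 18389805, minus strand, next to Vha100-2) was at 3.59 and 6.94 RPKM (1.93-fold lower, 1.68 to 2.23), and Vha36-3 at 6.83 and 10.8 RPKM (1.59-fold lower, 1.36 to 1.86). The abundant genes differed less. Vha16-1 had 331 and 456 RPKM (1.38-fold lower, 1.37 to 1.39), VhaPPA1-1 102 and 127 RPKM (1.24-fold lower, 1.20 to 1.29), and Vha68-2 163 and 190.9 RPKM (1.17-fold lower, 1.15 to 1.20). Vha36-1, Vha100-2 and Vha14-1 had intervals that included 1, from −0.05 to 0.06. Vha100-1 was the exception, at 16.5 and 15.2 RPKM (1.09-fold higher, 1.04 to 1.15).

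**Figure D3:**
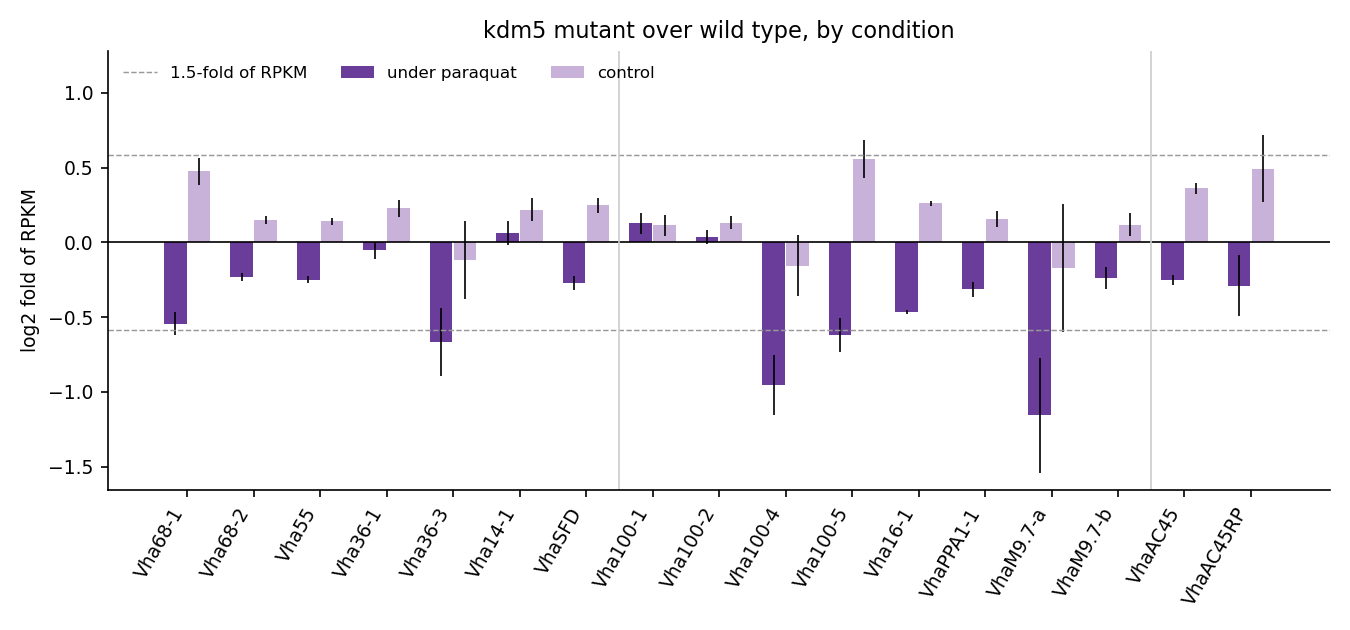
Log2 fold of RPKM, kdm5 mutant over wild type, for each of the 17 measured V-ATPase genes under paraquat and in control flies (bars, 1 library pair each; error bars are 95% counting intervals; dashed lines mark 1.5-fold of RPKM, not the call on log2(RPKM + 1)). Under paraquat 14 of 17 bars lie below 0, VhaM9.7-a and Vha100-4 furthest, and in control flies 14 of 17 lie above it; with upper-quartile scaling these counts are 16 and 15.

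Subunits A, D, a and e and the Ac45 pair each had more than 1 measured gene, which allowed the makeup of each to be followed. Vha68-1 held 10.3% of A subunit reads in mutant paraquat (9.93 to 10.7), 9.09% in mutant control (8.74 to 9.45), 12.5% in wild type paraquat (12.1 to 12.9) and 7.38% in wild type control flies (7.04 to 7.74). All 4 intervals were separate, with wild type paraquat at the top and wild type control at the bottom. Vha100-5 held 8.27%, 9.36%, 12.3% and 7.08% of a subunit reads in the same order of libraries, and Vha100-4 held 2.47%, 2.78%, 4.63% and 3.45%. Both had their largest share in wild type paraquat flies. Vha100-2, the main a subunit gene, held 63.2%, 64.2%, 59.9% and 65.1%, and Vha100-1 26.02%, 23.7%, 23.1% and 24.3%.

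Vha36-3 held 5.06%, 4.35%, 7.54% and 5.46% of D subunit reads, and VhaM9.7-a 2.74%, 2.97%, 5.06% and 3.61% of e subunit reads. Each was again largest in wild type paraquat flies, although for VhaM9.7-a the interval there (4.37 to 5.81) lay only just above that of the wild type control (2.94 to 4.37, equal at the shared bound after rounding). VhaAC45RP kept 2.72% to 3.06% of the Ac45 pair in all 4 libraries, with overlapping intervals.

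**Figure D4:**
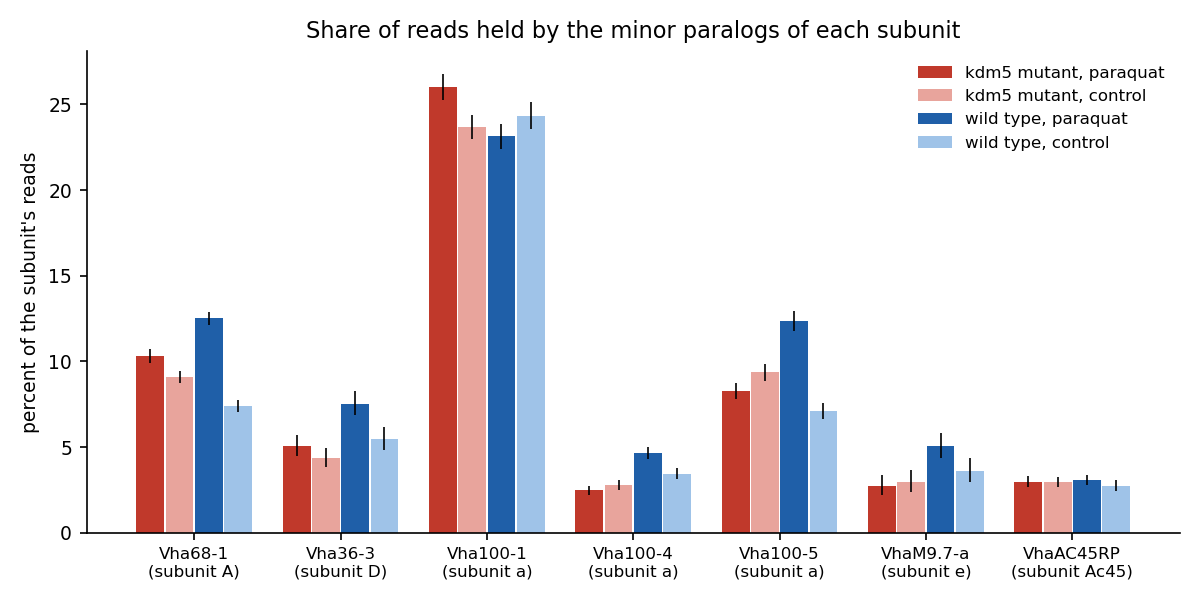
Percent of the reads of each subunit held by its minor paralogs in the 4 libraries (bars, single libraries; error bars are 95% Clopper-Pearson intervals). Shares of Vha68-1, Vha36-3, Vha100-4, Vha100-5 and VhaM9.7-a are tallest in wild type paraquat flies, while VhaAC45RP is level at 2.72% to 3.06%. By contrast, Vha100-1 is tallest in mutant paraquat flies, at 26.02%, and is at 23.1% in wild type paraquat flies.

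Genes that work with the pump were examined from lists of its partners. ATP6AP2, an accessory subunit whose symbol is outside the rule, had 108 RPKM in mutant paraquat, 120.1 in mutant control, 124 in wild type paraquat and 105 in wild type control flies, the same order as Vha16-1. Of 4 assembly and regulation genes with a row, Rbcn-3A, rogdi, mtd and Mitf, 0 were called by either rule in any comparison. Rbcn-3A belongs to a complex that joins V1 to V0, and Mitf is a transcription factor of V-ATPase and lysosome genes. Their median was −0.07 for paraquat in the mutant and −0.24 in wild type, and 0.03 in control and 0.21 under paraquat for mutant against wild type. Rbcn-3A had 14.8, 15.6, 12.3 and 14.8 RPKM in the order used above, and Mitf 13.5, 14.2, 11.9 and 13.2.

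Among 27 lysosomal enzymes and membrane proteins at 1 RPKM, 0 were called higher and 1 lower by the 1.5-fold rule for paraquat in the mutant (median 0.01), and 8 higher and 2 lower in wild type (median 0.26). In mutant against wild type controls 15 were higher and 1 lower (median 0.63), and under paraquat 3 and 1 (median 0.25). Higher calls over all genes by that rule were 2.11% for paraquat in the mutant and 15.4% in wild type. For the genotypes they were 14.7% in control flies and 7.2% under paraquat. Lower calls were 2.32%, 32.4%, 21.1% and 7.26% in the same order. The lysosomal mannosidase gene LManV had 21.7, 18.3, 35.8 and 8.38 RPKM, and LManVI 47.4, 33.3, 50.1 and 13.4. Both were lowest in the wild type control. Gal, for a beta-galactosidase, had 5.09, 8.34, 4.84 and 1.77, and GILT3, for a thiol reductase, 10.5, 8.83, 3.48 and 3.53.

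Of 18 partners in epithelial ion and water transport, 0 were called higher and 1 lower by the 1.5-fold rule for paraquat in the mutant (median −0.16), and 5 higher and 1 lower in wild type (median 0.28). In mutant against wild type controls 2 were higher and 1 lower (median 0.26), and under paraquat 0 and 2 (median −0.32). Over all genes, paraquat calls in the mutant were 2.11% higher and 2.32% lower, and those in wild type 15.4% higher and 32.4% lower. Genotype calls over all genes were 14.7% higher and 21.1% lower in control flies, and 7.2% and 7.26% under paraquat. The sodium pump beta subunit genes nrv3 and nrv2 had 29.1, 25.5, 51.1 and 21.02 RPKM and 8.83, 9.46, 13.5 and 6.71 RPKM. The potassium channel gene Irk2 had 6.93, 8.58, 10.4 and 5.79 RPKM and the carbonic anhydrase gene CAH1 4.76, 6.94, 6.24 and 3.82. TORC1 signalling genes, whose products sense nutrients at the lysosome, were called lower at shares near those of all genes. Of 11 measured, 4 were called lower with paraquat in wild type (median −0.56) and 0 in the mutant (median −0.07), 3 lower in mutant against wild type controls (median −0.30) and 0 under paraquat (median 0.04), with 0 higher throughout. Lower calls over all genes were 32.4% for paraquat in wild type and 21.1% in mutant against wild type controls. The list includes Nprl3, with 8.83, 9.58, 7.30 and 17.2 RPKM, Wdr24 with 7.66, 8.50, 6.44 and 14.4, Nprl2 with 8.20, 9.63, 8.75 and 15.3, and Tsc1 with 19.4, 22.1, 19.1 and 30.2.

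Markers of several tissues also differed between the libraries, and their part in the V-ATPase differences was not tested. Summed RPKM of 8 Malpighian tubule markers was 66.7 in mutant paraquat, 104 in mutant control, 85.7 in wild type paraquat and 93.6 in wild type control flies. Much of the gap in the mutant was Uro, at 13.2 RPKM with paraquat and 38.7 without. By the 1.5-fold rule 2 of 7 markers were called lower there and 0 higher, against 2.32% and 2.11% of all genes. Irk3, ClC-a and Nha1 are also on the list of transport partners. The sum was lower in wild type flies with paraquat than without, although the median difference of the markers was 0.08, and by the 1.5-fold rule 0 of 7 markers at 1 RPKM were called there. The sum of 11 midgut markers was 2673, 3100, 3844 and 2713 RPKM, and in wild type 4 of 8 were called higher with paraquat and 0 lower. By the same 1.5-fold rule 15.4% of all genes were called higher and 32.4% lower with paraquat in wild type. The copper cell marker lab was at 0.11 to 0.21 RPKM, so Vha100-4 could not be set beside a well measured marker of those cells. Neuron markers summed to 51.9, 50.5, 82.8 and 39.4 RPKM, and 6 of 6 were called higher with paraquat in wild type, while elav and Syx1A had no row. Vha100-1 differed by −0.04 in that comparison.

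Muscle markers (8 with a row) summed to 4257, 4731, 5823 and 1714 RPKM, with 8 of 8 called higher by the 1.5-fold rule with paraquat in wild type and in mutant against wild type controls. Higher calls over all genes were 15.4% and 14.7% in these comparisons. Female germline markers (8 with a row) summed to 466, 426, 351 and 565 RPKM, and 7 follicle cell and eggshell markers, with Cp36, Cp38 and Vm32E not analysed here, to 2003, 3575, 2729 and 7423. Both lists were highest in the wild type control, as were 52.5% of 8611 genes. In that library 9 of 17 V-ATPase genes were lowest, against 28.3% of the 8611. Fat body and oenocyte markers (7 with a row) summed to 6125, 9932, 4144 and 8612 RPKM, most of it from Yp1, Yp2 and Yp3, which encode yolk proteins. With paraquat in wild type 2 of the 7 were higher by the 2-fold rule, Lsp2 (1.79) and Fbp1 (2.66), and 2 lower, Yp1 (−1.13) and Yp3 (−1.25). Calls over all genes by that rule were 5.21% higher and 10.4% lower. With paraquat in the mutant 6 of these 7 were lower by the 1.5-fold rule and 0 higher (median −0.71). Of the follicle cell and eggshell markers 4 of 7 were lower there and 0 higher (median −0.78). Over all genes 2.32% were lower and 2.11% higher in that comparison. In wild type 4 of 7 follicle cell and eggshell markers were also lower with paraquat (median −2.37), against 32.4% of all genes. A smaller share of ovary RNA in a library and a higher level of V-ATPase transcripts in other tissues cannot be told apart in these data.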

How the data were processed

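RNA was sequenced from 4 groups of whole female flies with 1 poly-A library each (Illumina TruSeq), per the labels' protocols. Cufflinks and build dm3 appear in the submitters' processing notes. Aligner, annotation release and strand setting: not given in the sources used here; reads of antisense genes therefore cannot be told apart. The deposited tables hold, per the file headers, for each gene ID the length, the count of unique reads, the percent of the length covered (not used for results) and the RPKM. Counts sum to the header totals, and the authors' RPKM values equal reads divided by length and total. The deposited length was within 5% of the gene span, introns included, for 16 of the 17 measured members. Exon lengths and positions were taken from the BDGP6 annotation, which is newer than dm3. A member listed in some libraries was taken as 0 reads where unlisted. Symbols matched 11667 of 12073 IDs.

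Differences of log2(RPKM + 1) were computed with numpy 2.4.6 and pandas 2.3.3, counting intervals with scipy 1.17.1, and figures with matplotlib 3.10.9. Genes needed 1 RPKM in at least 1 library compared. Counting intervals do not cover differences between flies. The calls and intervals were tested on simulated counts with Poisson error only and with changes larger than those of the members. That checks the computation and does not bear on how far flies differ. Unique mapping can lose reads between paralogs. Named partners are up to 4 per list, by largest difference in any comparison, among those at 5 RPKM; ATP6AP2 and the tissue markers named singly were chosen after their values were seen. Promoter motifs were not searched. The members and lists were chosen with earlier results of these data known. Alternatives were other pseudocounts, minima, scalings, lengths and baselines, and members without overlapping genes.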

Additional observations from a re-analysis of the deposited data

Results flagged for a closer look

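The paraquat response was negative in the mutant and positive in wild type for 13 of 17 V-ATPase genes, a pattern seen in 21.6% of 8611 genes. For 9 of these 13 both counting intervals left out 1. This pattern picked out 5 values. Each contains the wild type control library, and none of these differences was tested, because each group had 1 library. The median difference of responses, mutant minus wild type, was −0.49 over 17 members, beside 0.25 over all genes. The members' medians were −0.14 in the mutant and 0.39 in wild type. The other 4 are single genes whose counting intervals left out 1 in both genotypes and whose responses differed by at least 0.58. Vha100-5, which shares 527 bp of its 2918 bp of exons with an antisense gene, differed by −1.03 (−0.30 in the mutant and 0.73 in wild type). Vha16-1 differed by −0.72 (−0.16 in the mutant and 0.56 in wild type). Vha100-4 differed by −0.66 (−0.27 in the mutant and 0.39 in wild type). VhaAC45 differed by −0.61 (−0.16 in the mutant and 0.44 in wild type).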

How the results depend on the processing

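With 1 library per group no library could be left out. No paired analysis was possible because each group has 1 library and no result comes from a test. Summed folds were held to their counting error and counts of members to 1.5 times the count reported. Each median was held to the counting error of the single member nearest it. For paraquat in the mutant that error, 0.21, exceeded the size of the median, −0.14, so a shrinking median could not be labelled as moved. By these measures 214 values over the members stayed, 37 moved and 1 turned round, and no called single gene turned round. Values that stayed include counts that were 0 in both settings. For paraquat in wild type, scaling moved the median of all genes, −0.29, to −0.13 (median-ratio) and −0.03 (upper-quartile). The members' median there was 0.54 with median-ratio scaling, 0.64 with upper-quartile scaling, 0.32 with a pseudocount of 5, 0.22 with no minimum and 0.13 with the mutant control as baseline. Called higher by the 1.5-fold rule were 7, 10 and 5 members with median-ratio, upper-quartile and mt:lrRNA-free totals, 5 with a pseudocount of 0.1 and 1 with 5; each of the 3 scalings put 1 member past the 2-fold rule. Summed reads there had a log2 fold of 0.57, 0.68 and 0.43 with these scalings, against 0.39. All 17 members were positive with median-ratio and upper-quartile scaling.

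For paraquat in the mutant the log2 fold of summed reads was −0.12, −0.10 and −0.12 with median-ratio, upper-quartile and mt:lrRNA-free totals, against −0.16, and 13 of 17 members were negative under each. For mutant against wild type controls the median was 0.26 and 0.29 with median-ratio and upper-quartile scaling, against 0.15, and turned to −0.13 with wild type paraquat as baseline. That baseline changes treatment together with genotype, and it uses the same library pair as the mutant control baseline above. Summed reads gave 0.33, 0.36 and 0.24, against 0.22. Upper-quartile scaling put 2 members higher by the 1.5-fold rule, and the other baseline 2 lower. Under paraquat, summed reads gave −0.36, −0.42 and −0.31, against −0.33. By the 1.5-fold rule 5 members were lower with upper-quartile scaling and 1 with a pseudocount of 5. By the 2-fold rule 1 was lower with a pseudocount of 0.1 and with median-ratio and upper-quartile scaling. The median difference of responses was −0.62 and −0.70 with these 2 scalings and −0.36 with no minimum. The cause of these shifts was not tested. Members highest in wild type paraquat numbered 13 or 14 of 17 under every scaling and length setting, and those positive in wild type and negative in the mutant 13, or 11 with mt:lrRNA-free totals; without the members that overlap other genes both counts were 11 of 14; these counts were chosen after seeing the data. With the deposited RPKM, 21.2% of 8611 genes were highest in wild type paraquat, and 21.6% were positive in wild type and negative in the mutant. Depth limits the rare paralogs, VhaM9.7-a most, with 84 to 186 reads.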
